A study of Mus musculus with 9 samples.

Results

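The nuclear-encoded subunits of the mitochondrial respiratory chain and ATP synthase were described in the knee joints of mice with antigen-induced arthritis and of control mice. Members were taken by name, as genes whose symbol begins with Ndufa, Ndufb, Ndufc, Ndufs, Ndufv, Sdha to Sdhd, Uqcr, Cox4 to Cox8 or Atp5, without the Ndufaf assembly factors and the pseudogenes. This rule gave 87 of the 24296 genes measured: 36 of complex I, 8 of complex II, 8 of complex III, 18 of complex IV and 17 of complex V. Among the 87 members, 7 match by name but encode no subunit (the assembly factors Sdhaf1 to Sdhaf4, Atp5s, Atp5sl and Cox7a2l), which leaves 80 subunits. The genes of the mitochondrial genome, whose symbols begin with mt-, served as the counterpart. There were 25 of them, 10 of which encode proteins.

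The study profiled single cells of the whole left knee joint of female 129/Sve mice by Seq-Well, a method that captures cells in wells and counts polyadenylated transcripts. The 5 sick mice (numbered 1, 3, 4, 5 and 6) had been pre-sensitized to methylated bovine serum albumin (mBSA) and received mBSA into the joint. The 4 healthy mice (numbered 1 to 4) received phosphate-buffered saline into the joint, and whether they were pre-sensitized is not given in the sources used here. Mice were 8 weeks old when the disease was triggered, were killed 1 week later, and each mouse gave 1 library.

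The respiratory chain passes electrons from NADH (complex I) or succinate (complex II) over complexes III and IV to oxygen, and ATP synthase (complex V) uses the resulting proton gradient to make ATP. Complexes I, III, IV and V are built from subunits of both genomes, whereas all subunits of complex II come from the nucleus. The catalytic core is partly encoded in the mitochondrion in complexes I, III and IV. Developing blood cells and muscle fibres depend on this machinery, while mature neutrophils are known for relying mainly on glycolysis.

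The 9 libraries held 16749 cells after 2 were left out, with 876 to 3850 cells and 896930 to 4675909 counts per mouse. Healthy mice 2, 3 and 4 stood apart from the other 6 libraries. Haemoglobin took 3532, 3973 and 3744 counts per 10000 in them, against 1759 in healthy mouse 1 and 1022 to 2794 in the sick mice. Transcripts resembling ribosomal RNA took 246 to 621 counts per 10000 in the 4 healthy mice and 97.0 to 228 after disease. The neutrophil marker list (11 of 11 genes above 0 in every mouse) summed to 110 to 319 counts per 10000 in healthy and 230 to 384 in sick mice, and these ranges overlapped. Markers of the joint's connective tissue were sparse: the fibroblast list summed to 0.123 to 0.422 counts per 10000 in healthy and 0.516 to 9.41 in sick mice, and most assigned cells below are of blood or bone marrow type. In all, 8 cell barcodes, carried by 16 cells, occurred in more than 1 mouse. No sequencing batch is given in the labels. In whole-joint sums, a different mix of cell types and a different amount of RNA per cell cannot be told apart.

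Nuclear-encoded members took a larger and the mt- protein-coding genes a smaller share of all counts in the sick joints. Members summed to 121.5, 92.0, 84.2 and 92.9 counts per 10000 in healthy mice 1 to 4, and to 154.3, 146.1, 133.9, 124.7 and 123.2 in sick mice 1, 3, 4, 5 and 6. The 10 mt- protein-coding genes summed to 27.4, 34.3, 43.9 and 64.2 in the healthy mice and to 17.5, 22.7, 20.1, 16.5 and 18.1 in the sick mice (the mt- sum below). All 25 mt- genes together, ribosomal RNAs included, took 548, 694, 856 and 1027 counts per 10000 in healthy mice 1 to 4. They took 399, 309, 605, 315 and 373 in sick mice 1, 3, 4, 5 and 6, so these ranges overlapped through sick mouse 4. Every sick mouse lay above every healthy mouse for the nuclear sum and below every healthy mouse for the mt- sum. The mean of the nuclear sum was 97.6 ± 16.4 (SD, n = 4) in healthy and 136.4 ± 13.5 (SD, n = 5) in sick mice, a 1.40-fold difference, and that of the mt- sum was 42.4 ± 15.99 and 19.0 ± 2.45, a ratio of 0.448.

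The ratio of nuclear-encoded to mt- protein-coding counts does not change with the haemoglobin or ribosomal RNA-like counts in the total. It differs between cell types, however, and so depends on their mix. It was 4.43, 2.69, 1.92 and 1.45 in healthy mice 1 to 4 and 8.81, 6.44, 6.66, 7.56 and 6.79 in the sick mice, again without overlap. The mean ratio was 2.77 times higher in the sick mice. The 3 healthy mice with the most haemoglobin had the lowest ratios, and healthy mouse 1 lay nearest to the sick mice. With healthy mouse 1 as the only control, the log2 difference in the ratio was 0.71 instead of 1.47, that in the nuclear sum 0.17 instead of 0.48, and that in the mt- sum -0.53 instead of -1.16.

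The nuclear shares of the groups overlapped once haemoglobin, mt- and ribosomal RNA-like counts were left out of the total. Members then took 164, 166, 179 and 201.5 counts per 10000 in the healthy and 183, 184, 191, 171 and 183 in the sick mice (log2 difference 0.04). The part of haemoglobin content in the larger nuclear share was not tested further.

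**Figure D1:**
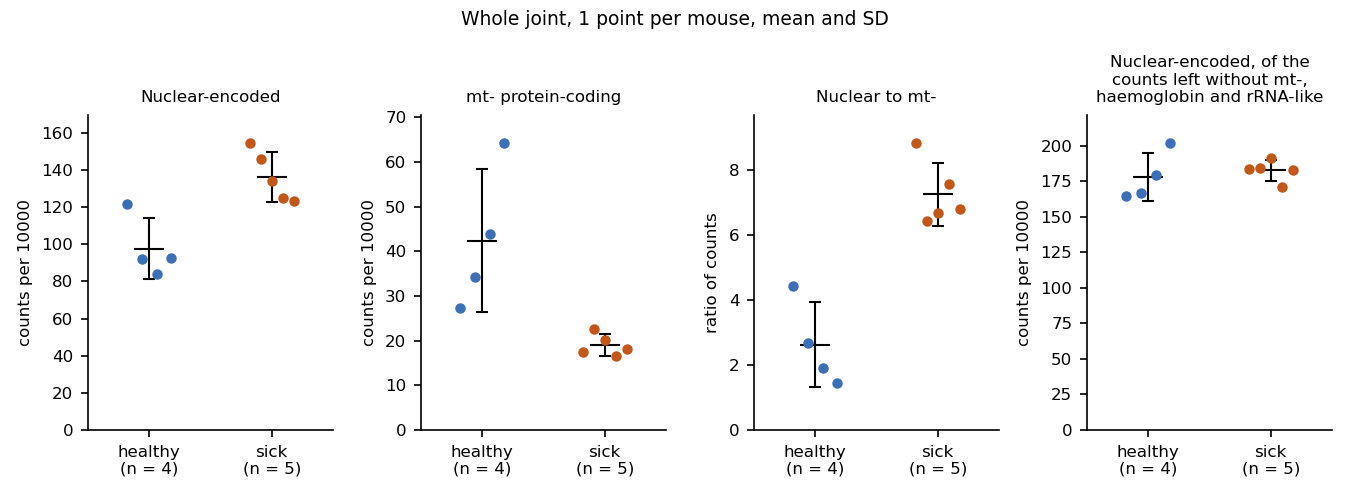
Summed counts in the whole joint, 1 point per mouse, with the group mean and SD (4 healthy mice in blue, 5 sick mice in orange). From left to right the panels give nuclear-encoded members and mt- protein-coding genes in counts per 10000, their ratio, and members per 10000 counts left after mt-, haemoglobin and ribosomal RNA-like transcripts were taken out. The groups are apart in the first 3 panels and overlap in the last.

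Complex by complex, the nuclear share of all counts was higher on average in the sick mice. Complex I, which oxidizes NADH, took 42.4, 31.9, 28.8 and 32.9 counts per 10000 in healthy and 56.1, 53.0, 49.98, 43.6 and 43.7 in sick mice, a log2 difference of 0.54 with no overlap. Complex III, which passes electrons to cytochrome c, took 9.84 to 13.8 in the healthy group and 14.6 to 18.8 in the sick group (log2 difference 0.51, no overlap). For ATP synthase the ranges were 21.3 to 30.02 and 30.3 to 37.1 (0.47, no overlap). The sums of succinate dehydrogenase (2.51 to 3.82 against 3.38 to 4.26, 0.35) and of cytochrome c oxidase, complex IV (21.6 to 31.5 against 31.1 to 38.1, 0.43), overlapped between the groups through healthy mouse 1. These directions hold for shares of all counts. Of the counts left without mt-, haemoglobin and ribosomal RNA-like transcripts, the groups overlapped in all 5 complexes, and the log2 difference was 0.091 for complex I, 0.056 for complex III and 0.023 for complex V but -0.092 for complex II and -0.015 for complex IV.

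The mt- counterparts were lower in the sick mice in each of the 3 complexes that could be compared. Mean mt- counts differed by -1.22 (log2) for complex I, -1.15 for complex III and -0.89 for complex IV. The nuclear-to-mt- ratio was 1.35 in healthy and 4.02 in sick mice for complex I, 1.58 and 4.41 for complex III, and 5.18 and 12.004 for complex IV. For complex V the mt- count was close to nil: mt-Atp6 had 29 counts over all mice, so no ratio was formed. mt-Co2 (15 counts) and mt-Co3 (88 counts) were as sparse. The mt- count of complex IV thus came almost wholly from mt-Co1. The ratios above compare the groups within a complex and cannot be compared between complexes.

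Single genes were tested on counts summed per mouse with edgeR's quasi-likelihood test, which scales libraries by the TMM method and adjusts p over all 10323 genes that passed a filter on low counts. Of the 87 members, 81 passed this filter. Those left out were Atp5g2, Atp5sl, Cox4i2, Sdhaf1, Sdhaf3 and Ndufa4l2. None of the 81 passed an adjusted p of 0.05, where 0.94% of all tested genes did. At an unadjusted p under 0.05, 13 members were higher and 2 lower in sick mice (13.8% of all genes passed that level in either direction), and DESeq2 called 2 members (2.46% of all genes). The members' median log2 fold change was 0.14, beside -0.02 over all genes tested. The 5 complexes differed little in this median: 0.24 for 36 genes of complex I, -0.04 for 6 of complex II, 0.14 for 8 of complex III, 0.09 for 16 of complex IV and 0.13 for 15 of complex V.

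The members with the smallest p were subunits of complexes I, III and V. Uqcrc1, a core protein of complex III (chr9:108936633-108949623, plus strand, GRCm38), stood at 158, 103, 90.3 and 89.7 CPM (counts scaled to the same total in each library) in healthy and 240, 207, 186, 159 and 146 in sick mice. The lowest sick mouse lay below healthy mouse 1, and the log2 fold change of 0.46 (SE 0.13) had an adjusted p of 0.124 in edgeR's quasi-likelihood test. DESeq2 called it higher (0.45, adjusted p = 0.0419).

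Ndufs7, which holds an iron-sulfur cluster near the quinone site of complex I (chr10:80249121-80256794, plus strand), had 83.2, 55.7, 47.3 and 49.7 CPM in healthy and 117, 104, 86.2, 93.8 and 90.1 in sick mice. The groups did not overlap, and the log2 fold change was 0.44 (SE 0.14, edgeR adjusted p = 0.157). Ndufa8, an accessory subunit (chr2:36036326-36049406, minus strand), had 37.0, 40.1, 37.3 and 33.3 CPM in healthy and 67.6, 75.3, 72.4, 61.2 and 58.0 in sick mice. These groups were also apart, with a log2 fold change of 0.53 (SE 0.17, edgeR adjusted p = 0.164). Ndufa9, another accessory subunit, differed by 0.61 (SE 0.20, edgeR adjusted p = 0.174).

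Atp5a1, the alpha subunit of the catalytic head of ATP synthase, went the other way on the TMM scale. It had 155, 128, 127 and 124 CPM in healthy and 143, 138, 131, 115 and 106 in sick mice, and the groups overlapped. Its log2 fold change was -0.41 (SE 0.13, edgeR adjusted p = 0.168), and DESeq2 called it lower (-0.42, adjusted p = 0.0497). The other member lower at an unadjusted p under 0.05 was Atp5s, which is no subunit despite its symbol (-0.83, SE 0.30, edgeR adjusted p = 0.231). Cox4i1, a subunit of complex IV and an abundant member, had 846, 554, 464 and 438 CPM in healthy and 747, 830, 692, 686 and 717 in sick mice. Healthy mouse 1 exceeded all sick mice, and the log2 fold change was 0.08 (edgeR adjusted p = 0.830).

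In CPM of all counts, 22 of the 81 members lay above every healthy mouse in all 5 sick mice (6.52% of all tested genes did), and 0 lay below (0.407%). Of these 22, 12 belong to complex I (Ndufa2, Ndufa3, Ndufa7, Ndufa8, Ndufa12, Ndufab1, Ndufb2, Ndufb4, Ndufb7, Ndufc1, Ndufc2 and Ndufs7). The others were Uqcr10, Uqcr11 and Uqcrq of complex III, Cox6c, Cox7a2 and Cox7b of complex IV, and Atp5e, Atp5h, Atp5j and Atp5k of complex V. CPM carries the difference in haemoglobin and ribosomal RNA-like content that the sums above show, which TMM scaling takes out in part.

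The mt- protein-coding genes passed the test together. All 7 that could be tested were called lower, and all 7 lay below every healthy mouse in every sick mouse. Counts of called mt- genes cover only the protein-coding ones, here and below. mt-Nd5, a core subunit of complex I, had 318, 437, 590 and 785 CPM in healthy and 206, 245, 237, 182 and 205 in sick mice (log2 fold change -1.71, SE 0.27, edgeR adjusted p = 0.00605). mt-Cytb of complex III had 524, 653, 886 and 1292 CPM against 347, 487, 373, 320 and 369 (-1.55). mt-Co1, the catalytic subunit of complex IV, had 383, 435, 550 and 690 CPM against 278, 291, 288, 242 and 286 (-1.27, edgeR adjusted p = 0.0111). The highest sick value of each gene was below the lowest healthy one. With healthy mouse 1 as the only control, which leaves 1 mouse in that group, 0 of the 7 passed the test. A group of 1 mouse has little power, and all 7 genes still lay below healthy mouse 1 in every sick mouse.

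**Figure D2:**
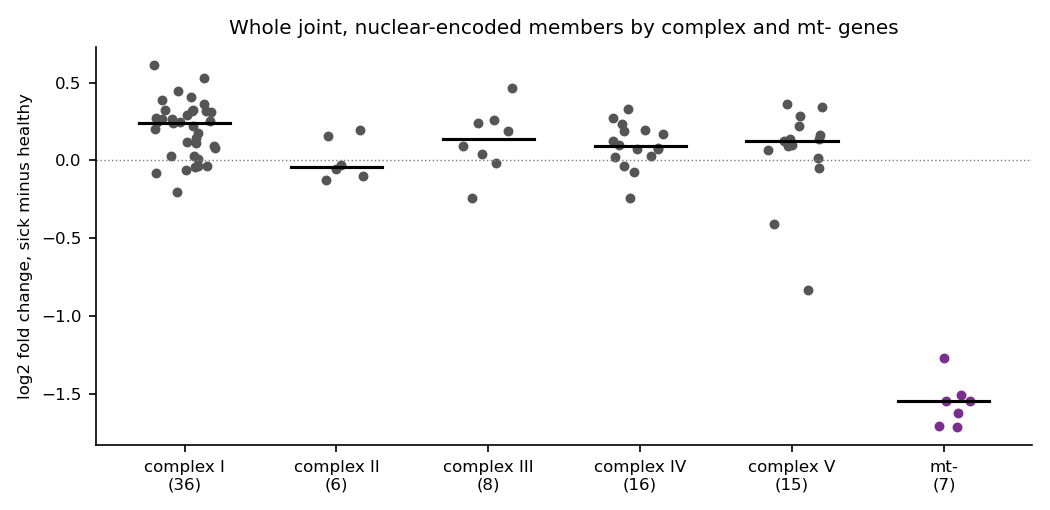
Log2 fold change of each tested gene between sick and healthy mice in the whole joint (vertical axis, edgeR with TMM scaling), by complex, with the number of genes in brackets and the median as a bar. Nuclear-encoded members (grey) scatter around a median of 0.14, and the 7 mt- protein-coding genes (purple) lie between -1.71 and -1.27.

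Other mitochondrial genes gave no calls in the whole joint. Of 10 tested assembly factors of complex I, 19 of complexes III to V, 2 genes for cytochrome c and c1, 14 of the tricarboxylic acid cycle, 8 regulators of mitochondrial biogenesis and 8 inner membrane carriers, 0 passed in edgeR. Median log2 fold changes were 0.19, 0.25, 0.26, -0.08, -0.17 and 0.11 in the same order.

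Cells were next assigned to classes by marker genes that include no member. The gate laid down at the start, which takes a class when its markers reach 3 times those of any other, called 8382 of the 16749 cells neutrophils. Neutrophil granule transcripts occurred in cells of every kind: the neutrophil list summed to 72.3 to 160 counts per 10000 in the other large classes. A second gate, added after this was seen, took a class only where its markers exceeded their mean share in the mouse by a Poisson p under 0.001. It left 3929 of those 8382 cells as neutrophils and 4216 ungated. The levels given below use this background-corrected gate, which assigned 7928 cells (47.3%): 3932 neutrophils, 1681 erythroid cells, 613 granulocyte progenitors, 535 monocytes or macrophages, 287 early B cells, 266 eosinophils, 116 skeletal muscle cells, 113 plasmacytoid dendritic cells and smaller classes. The 499 cells with an excess for more than 1 class were left out.

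Within classes, no member passed the test between sick and healthy mice. In edgeR, 0 of 66 tested members passed in neutrophils (0.902% of all tested genes did), 0 of 70 in erythroid cells (1.17%), 0 of 67 in granulocyte progenitors (0.34%) and 0 of 4 in eosinophils (0.0%). The first gate also gave 0 of 75 in neutrophils (1.41%) and 0 of 63 in erythroid cells (1.34%). At an unadjusted p under 0.05, the background-corrected gate gave 6 members higher in neutrophils (10.6% of all genes passed that level), 11 in erythroid cells (10.1%), 7 in progenitors (10.2%) and 0 in eosinophils (9.79%), with 0 lower. DESeq2 called 0 members in these 4 classes, where it called 1.01%, 1.26%, 0.849% and 4.2% of all genes. Median log2 fold changes of the members were 0.14, 0.27, 0.17 and 0.16, beside medians over all genes of -0.01, -0.01, -0.02 and 0.00.

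Uqcrc1 was the member that came nearest to a call in more than one of these fits. Among cells that the first gate left ungated, it was the single member called, 0.67 higher in sick mice on the log2 scale (SE 0.15, edgeR adjusted p = 0.0431), where 0.831% of all tested genes were called. The cells left ungated by the second gate gave 0 of 78 (1.15% of all genes). These fits share their mice and many of their cells with the whole-joint test.

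The deficit of mt- protein-coding transcripts was also seen inside classes. Transcripts carried over from other cells cannot be told apart from a class's own here, and their part was not tested. In neutrophils, nuclear-encoded members took 92.4, 75.4, 75.4 and 90.5 counts per 10000 in healthy and 104, 105, 96.7, 98.6 and 99.3 in sick mice. The nuclear-to-mt- ratio there was 4.05, 2.74, 2.06 and 1.93 in healthy against 8.35, 6.16, 5.39, 9.38 and 7.86 in sick mice, 2.76 times higher on average and without overlap. In erythroid cells it was 6.22, 7.58, 3.15 and 3.22 against 13.6, 10.01, 10.2, 13.3 and 11.9. In granulocyte progenitors it was 8.00, 5.03, 4.00 and 5.04 against 14.2, 11.0, 12.2, 8.98 and 10.5. All 3 classes thus showed higher ratios in each sick mouse than in any healthy mouse, and so did eosinophils (means 2.10 and 4.33).

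Of the mt- protein-coding genes, 6 of 7 were called lower in neutrophils and 6 of 6 in erythroid cells. In progenitors and in eosinophils 0 of 6 were called, where 6 and 4 were lower at an unadjusted p under 0.05 in edgeR. The first gate's neutrophil fit also held mt- genes for ribosomal and transfer RNA. There mt-Rnr1 was called lower, and mt-Rnr2, mt-Tc, mt-Tm, mt-Ta, mt-Ts2 and mt-Tv were not called. In erythroid cells 2 mt- genes were called without healthy mouse 3 and 1 without healthy mouse 4. Haemoglobin fell with them in neutrophils, where 3 of its 4 genes were called lower, and in progenitors (2 of 4), whereas in erythroid cells its mean was 3544 counts per 10000 in healthy and 3340 in sick mice. In erythroid cells the members' share of the counts left without mt-, haemoglobin and ribosomal RNA-like transcripts was 204 in healthy and 236 in sick mice, without overlap (log2 difference 0.21). In neutrophils that share was 117 and 116. The test of whether the disease difference itself differs between neutrophils and erythroid cells called 0 of 76 members under either gate (0.0% of all genes with the second and 0.187% with the first) and 0 of 7 mt- genes. With the second gate 4 members had a positive and 3 a negative difference at an unadjusted p under 0.05 (6.09% of all genes), and DESeq2 called 0 (0.0% of all genes).

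The level of nuclear-encoded transcripts ranged widely between classes. Members took a lowest, median and highest value of 170, 212 and 323 counts per 10000 in skeletal muscle cells (4 sick mice with at least 10 such cells), 145, 206 and 236 in granulocyte progenitors (9 mice), 133, 201 and 230 in early B cells (7 mice) and 109, 167 and 220 in monocytes or macrophages (9 mice). The ranges of these 4 classes overlapped. Lower down came plasmacytoid dendritic cells with 116, 141 and 176 (6 mice), erythroid cells with 96.5, 129 and 157 (9 mice), eosinophils with 83.6, 98.6 and 115 (9 mice) and neutrophils with 75.4, 96.7 and 105 (9 mice). These are shares of all counts, and haemoglobin takes a large part of them in erythroid cells. Without mt-, haemoglobin and ribosomal RNA-like counts, the members' share was far higher in erythroid cells than in neutrophils, as given above. The place of erythroid cells in this order thus holds for shares of all counts only. Eosinophils and neutrophils could not be told apart by this sum, while every mouse's progenitors exceeded every mouse's neutrophils. The total also held more ribosomal RNA-like and mt- ribosomal RNA counts in eosinophils. Against the other classes, Gm42418 was 2.67 and mt-Rnr1 1.35 higher there on the log2 scale. The eosinophil share without such counts is not given here. T or NK cells (median 127, 4 mice), fibroblasts (128, 2 mice) and plasma cells (82.6, 4 mice) rest on few mice.

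The ratio to mt- protein-coding transcripts gave another order. Because it differed between sick and healthy mice, and muscle cells came from sick mice alone, it is given for the sick mice. Its median there was 12.2 in muscle cells (4 mice) and, in 5 mice each, 11.9 in erythroid cells, 10.95 in progenitors, 7.86 in neutrophils, 7.62 in early B cells, 6.12 in monocytes or macrophages, 4.27 in eosinophils and 3.58 in plasmacytoid dendritic cells. Neighbours in this order overlapped in range, except monocytes or macrophages (5.38 to 8.81) and eosinophils (4.00 to 4.88). Over all mice, mt- protein-coding genes took a median of 15.7 counts per 10000 in erythroid cells and 38.8 in plasmacytoid dendritic cells. Counts of all mt- genes gave a different picture. Over the cells of all mice pooled, their median share per cell was 2.71% in neutrophils, 2.89% in progenitors and 2.99% in erythroid cells. It was 6.92% in plasmacytoid dendritic cells and 9.34% in eosinophils. Healthy mice 1 to 4 gave 53, 24, 32 and 13 of the 266 eosinophils. They gave 298, 116, 136 and 106 of the 3932 neutrophils. These pooled shares therefore mix the difference between classes with that between sick and healthy mice.

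**Figure D3:**
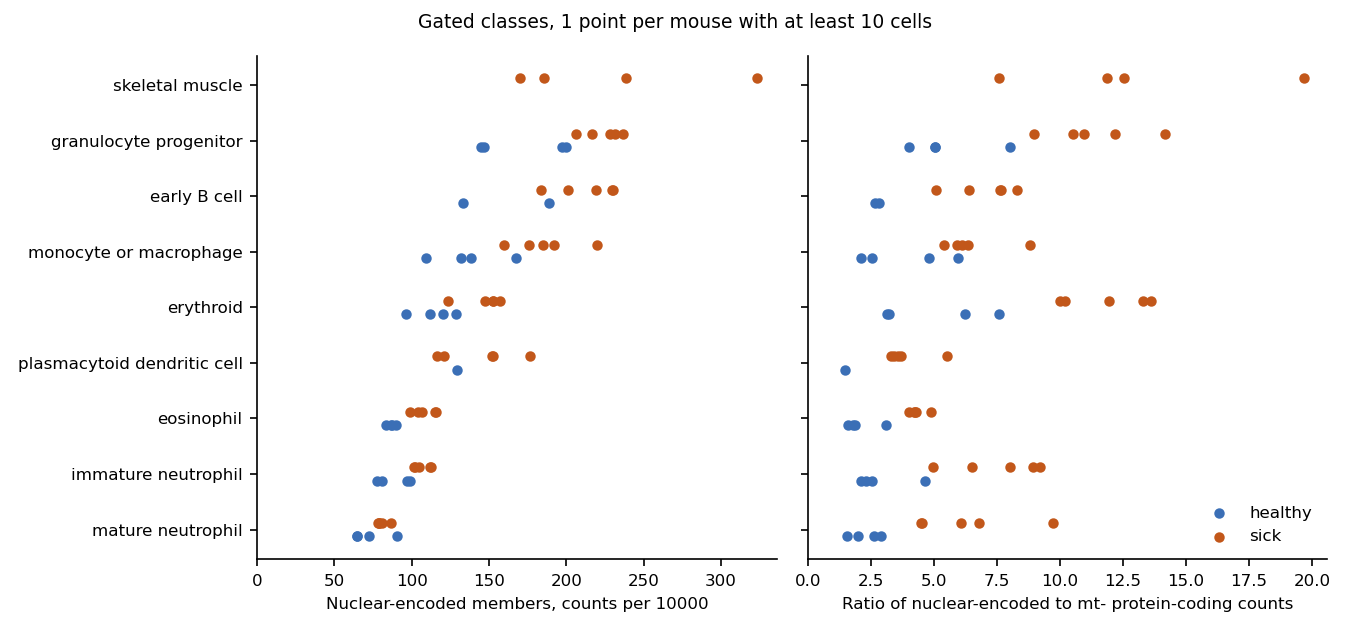
Nuclear-encoded members in counts per 10000 (left) and their ratio to mt- protein-coding counts (right) in cells of each class, 1 point per mouse with at least 10 cells (healthy blue, sick orange), with neutrophils shown by stage. Muscle cells, progenitors and early B cells reach the highest levels and mature neutrophils the lowest, and sick mice lie to the right of healthy mice in most classes.

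In the test of one class against the mean of the others, with the mouse as a block, 56 members and 1784 genes in all passed the filter. Granulocyte progenitors, the dividing precursors of neutrophils, had 41 members called higher and 0 lower in edgeR, where 39.2% of all genes were called higher. The members' median log2 difference was 0.61, beside 0.27 over all genes. By complex, 16 of 24 members of complex I, 5 of 7 of complex III, 9 of 12 of complex IV and 11 of 12 of complex V were higher. For complex II it was 0 of 1, as Sdhb alone was tested. DESeq2, which differs in scaling and in model, called 19 members higher and 2 lower (23.6% and 30.4% of all genes). With the first gate, edgeR called Sdhd (log2 difference 0.84) and Sdhc (1.81) of complex II higher in progenitors. Sdha, Sdhb and Sdhaf2 were not called there.

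Ndufa4, once counted with complex I and now assigned to complex IV (chr6:11900292-11907497, minus strand), led the progenitor list. It had a lowest, median and highest level of 604, 776 and 878 CPM in progenitors, 268, 355 and 433 in erythroid cells and 165, 228 and 241 in neutrophils, ranges that do not touch. Its log2 difference from the other classes was 0.94 (SE 0.11, edgeR adjusted p = 9.0e-12). Atp5g1, one of 3 genes for the same c-ring protein of ATP synthase, was 1.71 higher (SE 0.32, edgeR adjusted p = 3.4e-06), at 108, 185 and 259 CPM against 25.7, 30.2 and 54.3 in neutrophils. Cox7b, a small subunit of complex IV, was 0.93 higher, Uqcr11 of complex III 0.88 and Atp5a1 1.12. All 6 mt- protein-coding genes tested were called lower in progenitors, against the other classes, as were mt-Rnr1 and mt-Rnr2.

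Erythroid cells had 37 members called higher and 0 lower (39.7% of all genes were called higher), with a median of 0.51 beside 0.27 over all genes. Cox6a1, a subunit of complex IV, stood at 253, 469 and 565 CPM there and at 193, 287 and 337 in neutrophils, and its log2 difference was 1.12 (SE 0.13, edgeR adjusted p = 4.6e-13). Ndufb9 of complex I was 1.26 higher, Uqcr10 of complex III 0.92 and Atp5b, the catalytic beta subunit of ATP synthase, 0.97. DESeq2 called 21 members higher and 3 lower (29.8% and 33.5% of all genes). As in progenitors, mt- protein-coding genes were lower in erythroid cells. In edgeR, mt-Nd1, mt-Nd2, mt-Nd4, mt-Nd5 and mt-Cytb were called lower, with log2 differences from -0.68 to -0.45. The exception was mt-Co1, which was not called (-0.16).

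Early B cells had 21 members called higher and 0 lower (27.7% of all genes were called higher, median 0.43 beside 0.25), led by Ndufc2 of complex I at 1.35, with 15 higher in DESeq2 (21.9% of all genes). Without sick mouse 4 or sick mouse 5, 11 and 10 members were called. Monocytes or macrophages had 9 higher and 0 lower (24.8%, median 0.16 beside 0.23), a share below that of all genes. Sdhb, the iron-sulfur subunit of succinate dehydrogenase, was the first of these, 0.92 higher (SE 0.17, edgeR adjusted p = 6.9e-06), at 109, 313 and 466.1 CPM. Without sick mouse 6, 4 members were called.

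In eosinophils more members were called lower than higher: 9 lower and 3 higher, where 8.86% and 17.2% of all genes were called, with a median of -0.26 beside 0.19 over all genes. The log2 difference was -1.35 for Uqcr10 (SE 0.28, edgeR adjusted p = 0.00012) and -1.41 for Cox7b, while Atp5h stood 0.86 and Atp5g3 1.07 above the other classes. DESeq2 called 13 lower and 3 higher (10.4% and 18.6%). Without sick mouse 3, 6 members were called in all, and without sick mouse 1, 4 or 5, 7 were. Plasmacytoid dendritic cells had 4 lower and 0 higher (3.36% and 8.58% of all genes), among them Cox7a2 with a log2 difference of -1.36, but DESeq2 called 2 higher and 0 lower (14% and 2.13%). Without healthy mouse 1 or sick mouse 3, 1 member was called, and without sick mouse 6, 2 were.

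In neutrophils the members were divided, with 11 higher and 3 lower (33.6% and 16.6% of all genes) and a median of 0.06 beside 0.15 over all genes. Ndufb7, an accessory subunit of complex I, was 0.93 higher (SE 0.15, edgeR adjusted p = 3.0e-08), Atp5j, the coupling factor of the ATP synthase stalk, 0.78 and Cox7a2 0.68. Ndufab1, the mitochondrial acyl carrier protein that is also a part of complex I, had a log2 difference of -0.78. DESeq2 called 18 higher and 2 lower (37.5% and 19.1% of all genes). These directions hold on the TMM scale: in CPM of all counts, Atp5j had a median of 503 in neutrophils, below its 780 in progenitors and 699 in monocytes or macrophages. Of the remaining classes, plasma cells had 1 member higher (7.34% of all genes), mast cells or basophils 1 lower (0.448%), and osteoblasts and T or NK cells 0 (2.35% and 2.86% in either direction).

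With the first gate, 75 members and 5635 genes could be tested in 5 classes. Members called were 33 higher in granulocyte progenitors (24.4% of all genes were called higher), 38 higher in erythroid cells (30.2%), 41 higher in neutrophils (40.7%), 1 lower in monocytes or macrophages (4.28% lower) and 24 lower in eosinophils (9.71% lower), with none in the opposite direction. Progenitors, erythroid cells and eosinophils thus kept their direction under both gates. Neutrophils had 41 higher and 0 lower with the first gate against 11 and 3 with the second. In monocytes or macrophages the direction turned, from 9 higher and 0 lower with the second gate to 0 higher and 1 lower with the first (Ndufs7, log2 difference -2.46, SE 0.86, edgeR adjusted p = 0.0454).

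Skeletal muscle cells showed the largest single differences. Of the 56 members, 26 were called higher and 0 lower, against 6.28% and 0.28% of all genes, with a median of 0.96 beside 0.06. DESeq2 called 29 higher and 0 lower (7.4% of all genes higher). These cells came from sick mice 3, 4, 5 and 6 (42, 18, 15 and 21 cells), and without sick mouse 3 the count of called members was 10. Their own marker list summed to 244 counts per 10000, the neutrophil list to 135 and haemoglobin to a median of 2819, so other cells' transcripts were present among them. The count also covers members of general use, such as Ndufc1 of complex I (2.01 higher, SE 0.26, edgeR adjusted p = 3.6e-10), Uqcrb of complex III (1.96) and Sdhb (1.58).

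Several subunits exist as a general and a tissue-restricted form, and muscle cells held the restricted form of complex IV. Cox8b, the muscle and brown fat form of subunit VIII, was 7.94 higher in muscle cells on the log2 scale (SE 0.48, edgeR adjusted p = 1.6e-25), and Cox7a1, the muscle form of subunit VIIa, 7.08 higher (SE 0.52, edgeR adjusted p = 2.4e-21). Both genes had few counts in other classes, so they may have passed the filter on low counts through muscle cells alone. Their p-values, and their place among the members called in muscle cells above, are therefore descriptive. Cox8b made up 38 of the 42 counts that it shares with Cox8a in the muscle cells of sick mouse 3, 18 of 19 in sick mouse 4, 10 of 14 in sick mouse 5 and 7 of 13 in sick mouse 6. Pooled over all mice, this is 81 of 98 counts or 82.7% (exact binomial 95% interval 73.7 to 89.6, which covers counting error only), against 13 of 749 or 1.74% in neutrophils (0.927 to 2.95). Median depth per cell was 789 counts in muscle cells and 831 in neutrophils. Cox7a1 made up 46 of 77 counts shared with Cox7a2 in muscle cells (59.7%, interval 47.9 to 70.8) and 9 of 1070 in neutrophils (0.841%).

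The upstream sequences of Cox8a, Cox8b and Cox7a1 are given to set a general form beside the muscle forms that these cells held. They are 300 bases around the RefSeq start in GRCm38.p6, read 5′ to 3′ on the gene's strand. Capitals mark the searched motifs, found on either strand: the ETS core CCGGAAG, which reads CTTCCGG from the opposite strand, the muscle-type E-box CAGCTG and the TATA box TATAAA.
Cox8a, chr19:7217567-7217866, minus strand: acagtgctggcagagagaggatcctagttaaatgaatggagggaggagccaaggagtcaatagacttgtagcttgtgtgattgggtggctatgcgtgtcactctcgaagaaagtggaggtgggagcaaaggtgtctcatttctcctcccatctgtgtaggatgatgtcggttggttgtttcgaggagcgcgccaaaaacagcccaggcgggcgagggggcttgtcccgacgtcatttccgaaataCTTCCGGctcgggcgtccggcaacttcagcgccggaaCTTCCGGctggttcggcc
Cox8b, chr7:140900397-140900696, minus strand: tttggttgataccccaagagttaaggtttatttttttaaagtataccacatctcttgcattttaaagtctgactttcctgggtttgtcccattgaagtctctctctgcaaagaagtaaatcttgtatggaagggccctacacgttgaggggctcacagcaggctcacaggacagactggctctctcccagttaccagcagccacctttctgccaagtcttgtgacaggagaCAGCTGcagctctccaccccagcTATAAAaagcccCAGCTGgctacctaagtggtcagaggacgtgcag
Cox7a1, chr7:30183921-30184220, plus strand: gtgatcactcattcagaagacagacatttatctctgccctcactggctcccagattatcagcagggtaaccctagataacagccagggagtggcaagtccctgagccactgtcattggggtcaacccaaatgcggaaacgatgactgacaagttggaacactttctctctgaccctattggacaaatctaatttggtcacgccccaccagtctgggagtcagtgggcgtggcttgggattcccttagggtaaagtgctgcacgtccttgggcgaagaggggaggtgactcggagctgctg
Cox8a, the general form, carries 2 ETS cores and neither of the others, Cox8b carries 2 E-boxes and 1 TATA box, and the Cox7a1 window holds none of these letters. Of the 87 members, 70 had a promoter in the RefSeq table. Among those 70, the ETS core occurred in 18 (25.7%, against 9.12% of all 27025 promoters), the NRF1 core GCGCATGCG in 8 (11.4% against 1.81%), the E-box in 6 (8.57% against 16.1%) and the TATA box in 7 (against 14.2% of all). The 8 with the NRF1 core were Atp5g2, Atp5k, Atp5l, Cox6a1, Ndufa8, Ndufa11, Uqcr11 and Uqcrc1. These are matches of letters on either strand and not bound sites, and no searched motif contains another.

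Cox6a2, the muscle form of subunit VIa, occurred in a further class. It made up 22 of 56 counts shared with Cox6a1 in muscle cells (39.3%, interval 26.5 to 53.2) and 18 of 46 in plasmacytoid dendritic cells (39.1%, 25.1 to 54.6), against 12 of 1248 in neutrophils (0.962%) and 8 of 1351 in erythroid cells (0.592%). In plasmacytoid dendritic cells, sick mouse 5 gave 9 of 13 counts and the other mice with at least 10 such cells gave 1 of 3, 2 of 8, 1 of 7, 2 of 5 and 2 of 8. Cox6a2 did not pass the filter on low counts; without that filter it was 3.93 higher in plasmacytoid dendritic cells (SE 0.55, edgeR adjusted p = 8.5e-10) and 4.60 higher in muscle cells (SE 0.55, edgeR adjusted p = 2.4e-14), where 1.16% and 0.679% of all genes were called. In plasmacytoid dendritic cells the 10 muscle markers summed to 3.03 counts per 10000, beside 3.4 in neutrophils.

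Counts of Cox6b2, known as the testis form of subunit VIb, were most frequent in erythroid cells. It made up 148 of 777 counts shared with Cox6b1 in erythroid cells (19.0%, interval 16.3 to 22.0, and 9.09% to 31.6% by mouse), 66 of 585 in progenitors (11.3%) and 86 of 786 in neutrophils (10.9%). In monocytes or macrophages it was 9 of 274 (3.28%, 1.51 to 6.14, and 0% to 6.45% by mouse). The erythroid and monocyte ranges by mouse did not overlap. The shares in neutrophils and progenitors are close to the 11.5% of the whole joint (545 of 4732), fibroblasts gave 0 of 22 and T or NK cells 0 of 11, and the part of transcripts carried over from erythroid cells was not tested. Without the filter on low counts, Cox6b2 was 2.58 higher in erythroid cells (SE 0.35, edgeR adjusted p = 7.4e-12), 1.79 in progenitors and 1.56 in neutrophils, where 26.8%, 26.6% and 30.2% of all genes were called.

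Other restricted forms were nearly absent. Cox4i2, the lung and hypoxia form of subunit IV, made up 11 of 14064 counts shared with Cox4i1 in the whole joint, and Ndufa4l2, a hypoxia-induced relative of Ndufa4, 12 of 6865. Among the 3 c-ring genes, Atp5g1 gave 36 of 51 counts in muscle cells (70.6%), 261 of 478 in progenitors (54.6%) and 134 of 339 in neutrophils (39.5%). In the whole joint these isoforms did not separate the groups: Cox8b was at 0.66 to 12.6 CPM in healthy and 2.06 to 20.1 in sick mice, and Cox6b2 at 13.4 to 35.0 and 22.1 to 33.4.

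**Figure D4:**
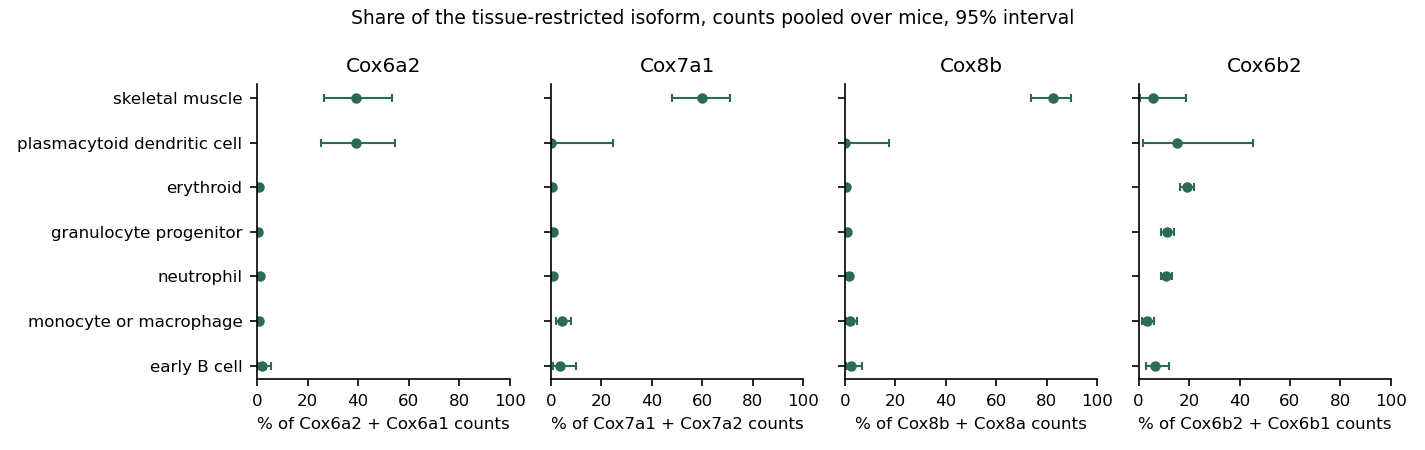
Share of the tissue-restricted form in the counts of each isoform pair (horizontal axis, percent) by class, pooled over all mice, with exact binomial 95% intervals for counting error. Cox7a1 and Cox8b stand out in muscle cells, Cox6a2 in muscle cells and plasmacytoid dendritic cells, and Cox6b2 reaches 19.0% in erythroid cells.

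Along the neutrophil lineage the nuclear-encoded members fell in 2 steps. Median sums were 206 counts per 10000 in granulocyte progenitors, 102 in immature neutrophils (those rich in granule transcripts) and 78.9 in mature neutrophils. The lowest progenitor value, 145, lay above the highest immature one, 112, while the immature and mature ranges (77.3 to 112 and 64.6 to 90.2) overlapped. Haemoglobin, which belongs to erythroid cells, moved between these stages too: its medians were 704, 1083 and 1164 counts per 10000, and all 4 of its tested genes were called higher at the first step (log2 differences 0.92 to 1.20) and 0 at the second. Of the counts left without mt-, haemoglobin and ribosomal RNA-like transcripts, members took a median of 243 in progenitors (178 to 261), 123 in immature (105 to 142) and 95.8 in mature neutrophils (82.1 to 144), so the first 2 ranges stayed apart. In edgeR's test on those counts, 26 members were called lower and 1 higher at the first step, and 13 lower and 0 higher at the second. The share of all genes called in that fit is not given here. These counts thus show the direction of the called members and no excess over other genes. In the edgeR test with the mouse as a block, 70 members and 3535 genes were tested. Between progenitors and immature neutrophils, 39 members fell and 0 rose, where 37.6% of all genes were called lower. The median was -0.46 beside -0.15 over all genes. From immature to mature neutrophils 17 fell and 0 rose (14.2% of all genes were called lower, median -0.47 beside -0.20). Leaving out 1 mouse gave 18 to 39 calls at the first step (18 without sick mouse 1) and 8 to 16 at the second (8 without healthy mouse 1).

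All 5 complexes were among the genes that fell at the first step: 15 of 32 members of complex I, 3 of 4 of complex II, 6 of 7 of complex III, 6 of 13 of complex IV and 9 of 14 of complex V. Ndufa4 went from 604, 776 and 878 CPM (lowest, median, highest) in progenitors to 161, 245 and 271 in immature and 86.1, 122 and 204 in mature neutrophils. It fell by 1.17 (SE 0.14, edgeR adjusted p = 3.2e-14) at the first and by 0.72 (SE 0.19, edgeR adjusted p = 0.0021) at the second step. Cox7b went from 147, 490 and 690 to 81.3, 159 and 228 and then 58.2, 125 and 258. It fell by 1.18 at the first step, although the ranges overlapped. Atp5g1 fell by 1.78 (SE 0.24, edgeR adjusted p = 5.6e-11), from a median of 185 to 37.8.

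Other members called at the first step were Uqcr11 (fell by 1.16), Uqcrc1 (fell by 1.098, from a median of 329 to 118 CPM), Ndufb2 and Ndufab1. At the second step Ndufc1 fell by 0.99 (SE 0.22, edgeR adjusted p = 0.000172), Uqcrb by 1.14, Atp5o by 0.78 and Cox6c by 0.63. The mt- protein-coding genes did not follow: at the first step 2 of 7 were called higher and 0 lower, and at the second 0 of 7 were called. mt-Cytb had medians of 498, 375 and 364 CPM over the 3 stages, with wide and overlapping ranges (231 to 891, 207 to 959 and 162 to 937).

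Neighbouring mitochondrial genes went down in part at the first step: 4 of 8 tested genes of the tricarboxylic acid cycle fell and 1 rose, both tested assembly factors of complex I fell, and 4 of 8 inner membrane carriers fell while 1 rose. These lists are short, and many of all tested genes were called lower at this step, by the share given above. No excess over other genes is read from these counts. With the first gate, 26 of 69 members fell at the first step (29.7% of all genes were called lower) and 40 of 69 at the second (15.2%), so the split between the steps depends on how cells were gated. DESeq2 called 54 and 16 members lower with the second gate (44.2% and 11.8% of all genes).

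**Figure D5:**
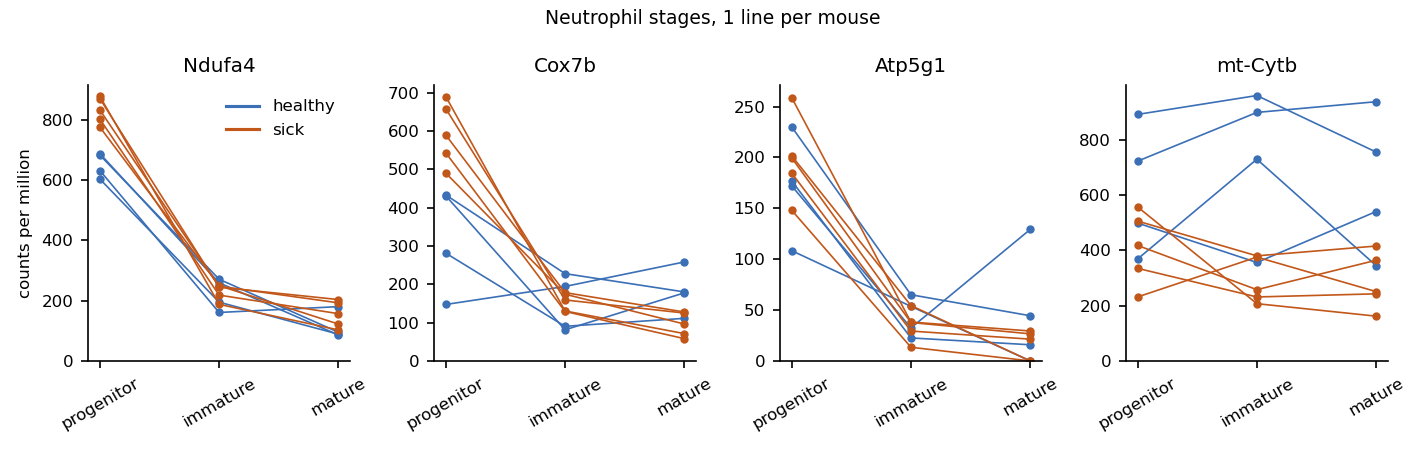
CPM of Ndufa4, Cox7b, Atp5g1 and mt-Cytb (vertical axes, each with its own scale) in granulocyte progenitors, immature and mature neutrophils, 1 line per mouse (healthy blue, sick orange). The 3 nuclear-encoded genes are highest in progenitors in every mouse except healthy mouse 2 for Cox7b, and mt-Cytb shows no common course.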

How the data were processed

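Counts per gene and cell were deposited by the authors for single cells of the knee joints of 9 mice. Per the submitters' processing notes, they were made with bcl2fastq, Picard, STAR and the Drop-seq Core Computational Protocol 1.0.1, and the notes name both GRCm38 and mm9. Cells were kept if they had 200 or more genes and no more than 20% mt- counts (16749 of 16751), no doublet caller was run, and each mouse's counts were summed over all its cells or over the cells of a class with at least 10 cells (20 for the disease tests). Gates and the reason for the second one are given with the results. Tests used edgeR 4.0.16 (filterByExpr, TMM, quasi-likelihood, limma 3.58.1) in R 4.3.3 with Benjamini-Hochberg adjustment over all genes tested, and the mouse as a block between classes. The scripts were tested on simulated data. DESeq2 1.42.0, no filter, other cell filters, other scalings, the replicate block and leaving out each mouse were alternatives. Standard errors were derived from the F statistic. Python 3.11.15 with pandas 2.3.3, numpy 2.4.6, scipy 1.17.1 and matplotlib 3.10.9 did the rest. Named genes were called members, up to 20 by p, the members with the smallest p or highest counts of each complex, isoform groups and mt- genes. The members and lists were chosen with earlier results of these data known. Libraries of 1 group differed beyond sampling noise (chi-square over degrees of freedom 3.56 to 35.1), so none was counted as a duplicate. Separate mice are the replicates.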

Additional observations from a re-analysis of the deposited data

Results flagged for a closer look

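Among 104 groups of 4 or 5 mice, 5 values lay farther from the rest of their group than Dixon's 95% limit for a single stray value. Chance flags about 1 in 20 groups, so 5 of 104 is close to the number that chance alone gives.

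In neutrophils, the summed nuclear-encoded subunits of complex IV stood at 22.0 counts per 10000 in sick mouse 4, whose gap to the nearest sick mouse took 0.908 of the group's range (n = 5). In the whole joint, healthy mouse 1 lay above the other healthy mice for the ATP synthase sum (30.02 counts per 10000, 0.862 of the range, n = 4) and for Atp5a1 (155 CPM, 0.879 of the range). Cox7a2 stood at 323 CPM in sick mouse 1, 0.778 of the range away from the nearest sick mouse (n = 5), and mt-Co1 at 242 CPM in sick mouse 5 (0.720 of the range). Healthy mouse 1 also had the least haemoglobin of the healthy mice. The part of haemoglobin content in its values was not tested.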

How the results depend on the processing

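Of 1830 values computed for 122 results, 1520 alternatives kept direction and side of the threshold, or stayed within 1.5 times a count. The cause of the changes below was not tested. Counts of called members below cover both directions, and the share of all genes called is not given beside them. They show how far a count moves with the processing and no excess over other genes. Depth limits the rare classes and the restricted isoforms, which rest on few counts. The background-corrected gate, and leaving out healthy mice 2, 3 and 4, were chosen after seeing the data. Equal replicate numbers do not pair the mice (correlations 0.18, -0.04 and 0.07). With the replicate block, 0 members and 7 mt- genes were called in the whole joint, and the single changed count was 1 mt- gene in progenitors instead of 0.

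In the whole joint, 2 members were called by DESeq2 and 0 mt- genes without healthy mice 2, 3 and 4. Cox4i1 turned from 0.08 to -0.088 without those 3 mice, and Sdhaf2 from 0.20 to -0.038 in gated cells alone. The log2 differences of complexes I to V and of all members were 0.22, 0.035, 0.18, 0.11, 0.15 and 0.16 on TMM-scaled CPM, and 0.22, -0.025, 0.26, 0.10, 0.15 and 0.17 without the 3 mice. They were 0.091, -0.092, 0.056, -0.015, 0.023 and 0.038 without mt-, haemoglobin and ribosomal RNA-like counts. The mt- difference was -1.56 on TMM-scaled CPM and -0.53 without the 3 mice, where the ratio differed by 0.71.

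Disease counts within classes gave 0 to 2 in neutrophils (first gate) and, with the second gate, 0 to 1 in erythroid cells when 1 mouse was left out. The mt- counts were then 1 to 6 in erythroid cells and 0 to 2 in progenitors. Without the filter on low counts, 1 member was called in erythroid cells and 1 in progenitors, and 2 mt- genes in erythroid cells. DESeq2 called 3 mt- genes in progenitors.

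With the first gate, DESeq2 called 14 members in eosinophils, 10 in neutrophils, 0 in monocytes or macrophages, 53 from progenitor to immature and 6 from immature to mature neutrophils. No filter gave 23 in erythroid cells, 17 in progenitors and 0 in monocytes or macrophages. Without the mouse as a block there were 23 in neutrophils, 18 at the second step and 0 in monocytes or macrophages, and without mt-, haemoglobin and ribosomal RNA-like counts 18 in neutrophils and 0 in monocytes or macrophages. The second gate gave 12 in eosinophils, 9 in monocytes or macrophages, 14 in neutrophils and 17 at the second step, and a minimum of 3 markers 46 at the first. Leaving out 1 mouse gave 33 to 58 in erythroid cells, 19 to 42 in neutrophils, 0 to 1 in monocytes or macrophages, 13 to 30 at the first and 26 to 47 at the second step.

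With the second gate, no filter gave 5 in early B cells, 5 in eosinophils, 67 in erythroid cells, 73 in progenitors, 0 in mast cells, 31 in monocytes or macrophages, 62 in neutrophils, 8 in muscle cells and 15 at the first step. DESeq2 gave 24 in erythroid cells, 21 in progenitors, 0 in mast cells and 2 in plasmacytoid dendritic cells, where leaving out mt-, haemoglobin and ribosomal RNA-like counts also gave 2. Without the mouse as a block there were 0 in mast cells, 1 in osteoblasts, 23 at the first and 9 at the second step. Leaving out 1 mouse gave 10 to 23 in early B cells, 6 to 13 in eosinophils, 0 to 1 in mast cells, osteoblasts and T or NK cells, 4 to 8 in monocytes or macrophages, 1 to 2 in plasma cells, 1 to 5 in plasmacytoid dendritic cells, 10 to 27 in muscle cells, 18 to 39 at the first and 8 to 16 at the second step.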
